A study of Homo sapiens with 2 samples.

Results

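Secreted Wnt antagonists and the receptors that work with them were examined in the human colorectal adenocarcinoma line SW480, with and without introduced TFAP2E. The set was chosen by gene symbol, with earlier results of these data known. It holds 10 genes, the Dickkopf proteins DKK1, DKK2, DKK3 and DKK4, the Dickkopf receptors KREMEN1 and KREMEN2, and the Wnt-binding proteins SFRP1, SFRP5, FRZB and WIF1. All 10 were found among the 18417 genes named on the array, through 11 of its 33297 probe sets, since DKK3 had 2.

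RNA of stable SW480 clones transfected with the coding sequence of TFAP2E in the pTarget mammalian expression vector was hybridised to 1 Affymetrix array, and RNA of SW480 clones carrying the vector alone to another. TFAP2E encodes AP-2 epsilon, a DNA-binding transcription factor, and both kinds of cells had been under Geneticin selection for some weeks. Per the labels' protocols single clones were picked and checked for TFAP2E, and the labels do not say whether an array holds 1 clone or several. A difference between clones and a difference due to TFAP2E therefore cannot be told apart, and with 1 array per group no value below has a replicate, an error or a test.

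Wnt ligands are secreted lipid-modified proteins that bring a Frizzled receptor together with the co-receptor LRP5 or LRP6, after which beta-catenin escapes destruction and activates genes with TCF/LEF factors. Secreted antagonists act outside the cell and by different routes. Dickkopf proteins bind LRP5 and LRP6, and Kremen receptors help to remove that complex from the cell surface, whereas secreted Frizzled-related proteins and WIF1 bind the Wnt ligand itself. SW480 cells carry truncated APC, a scaffold of the beta-catenin destruction complex, so that beta-catenin signalling is active in them without a ligand. DKK4 is itself known as a gene that beta-catenin and TCF can activate, and the study's authors have examined it in published work as a gene downstream of TFAP2E.

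Values are log2 RMA values, a normalised expression level per probe set, and each difference is the TFAP2E overexpression array minus the empty vector array. A gene was counted as measured when the higher of its 2 values reached 5.55, the median of every value on the 2 arrays, and is called dim otherwise. This is not a detection limit. Of the 18417 genes 11548 were measured, and their differences had a median of 0.04 and a standard deviation of 0.219, with 95% between -0.37 and 0.47. A 2-fold difference served as a fixed rule of size, and 0.199% of the measured genes passed it, with 0.0866% higher and 0.113% lower on the TFAP2E array. The level of a probe set also depends on its probes, so that levels are compared between arrays and not between genes.

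Of 9 markers of colorectal epithelium, the labelled origin of the cells, 8 were measured, among them EPCAM at 11.1 with TFAP2E and 11.2 with empty vector and the keratin KRT18 at 12.6 on both. CDH17, an intestinal cadherin, was dim on both arrays. VIL1, which encodes villin, read 6.22 with TFAP2E and 4.94 with empty vector, where it was dim, a difference of 1.28. CDH1, which encodes E-cadherin, differed by -0.71, and the part of such epithelial differences in the results below was not tested. Markers of fibroblasts (6 of 8), endothelium (5 of 6) and leukocytes (4 of 6) were mostly dim, with the leukocyte marker PTPRC at 2.74 on both arrays. The leukocyte markers CD68 and CD14 were measured. CD68 read 6.60 with TFAP2E and 6.02 with empty vector, and CD14 read 5.46 with TFAP2E and 5.66 with empty vector. The TFAP2E probe set itself read 6.81 with TFAP2E and 6.77 with empty vector, a difference of 0.04, so that the introduced gene was not seen at this probe set. The sources used here do not say which stretch of the transcript it covers. All directions below therefore rest on the labels alone.

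DKK4 was the one member of the set that differed by more than 2-fold. It read 7.96 with TFAP2E and 10.4 with empty vector, a difference of -2.41. On a linear scale the value with TFAP2E was 18.8% of that with empty vector, which is 5.32-fold lower. In bulk RNA of this kind, fewer cells with the transcript and less transcript per cell cannot be told apart.

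The DKK4 difference was measured on both sides. Its value with TFAP2E lay 2.42 above the filter value on the log2 scale, and its value with empty vector 4.83 above it. No measured gene had a lower difference, though 4 probe sets without a gene symbol did. The gap to the next gene, PARM1, was 0.74. PARM1 was dim with TFAP2E, and with a filter on the mean of both values the next one was ALDH1A3, at a gap of 1.10. By size alone, in either direction, DKK4 was the third of the 11548. Among the 3788 genes with a mean log2 level of at least 8, where DKK4 belongs, 5 passed the 2-fold rule, 0.132%, all of them lower with TFAP2E. DKK4 was the only one of these 3788 to be lower by more than 4-fold, a share of 0.0264%.

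**Figure D1:**
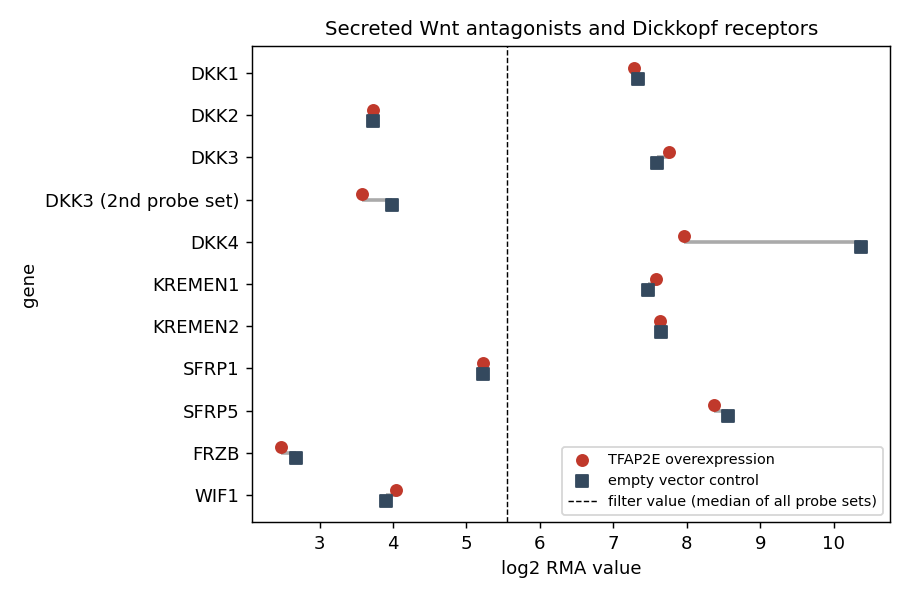
Log2 RMA value (horizontal axis) of each of the 11 probe sets of the 10 genes, with circles for the TFAP2E overexpression array and squares for the empty vector array, 1 array each, and the filter value as a dashed line. DKK4 alone shows a long bar, between 7.96 with TFAP2E and 10.4 with empty vector, the dim second probe set of DKK3 differs by -0.42, and the marks of the other 9 probe sets lie close together.

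The other Dickkopf proteins did not share this difference. DKK1, the best studied of the family and an inhibitor that binds LRP6, read 7.29 with TFAP2E and 7.34 with empty vector, a difference of -0.05. Of all measured genes 29.5% had a lower difference than DKK1, which places it well inside the bulk.

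DKK3, a divergent member of the family whose action on Wnt signalling is less settled, read 7.76 with TFAP2E and 7.59 with empty vector at its brighter probe set, a difference of 0.16. Its other probe set was dim, at 3.57 with TFAP2E and 3.99 with empty vector, and differed by -0.42. The probe sets of DKK3 thus disagreed in sign, and the sign of the gene turned with their mean (-0.13). DKK2, which can block or promote signalling depending on the receptors present, was dim and read 3.73 on both arrays, with no difference in the deposited decimals.

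The Dickkopf receptors were both measured and both near 0. KREMEN1 read 7.59 with TFAP2E and 7.47 with empty vector, a difference of 0.12. KREMEN2 read 7.64 with TFAP2E and 7.65 with empty vector, a difference of -0.01 that became 0.01 when the arrays were centred on their medians. The co-receptors on which Dickkopf proteins act lay within the bulk of all genes. None of them passed 1.5-fold, which 1.5% of all measured genes did. LRP5 differed by 0.23 and LRP6 by 0.07, and LRP4, a related receptor that binds sclerostin and Dickkopf proteins, by 0.10.

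Of the Wnt-binding antagonists only SFRP5 was measured. It read 8.37 with TFAP2E and 8.56 with empty vector, a difference of -0.19, and 10.6% of the measured genes had a lower one. SFRP1, whose gene is often silenced by methylation in colorectal cancer, was dim and read 5.22 on both arrays. FRZB, also known as SFRP3, was dim at 2.48 with TFAP2E and 2.67 with empty vector. WIF1, a Wnt-binding protein with a WIF domain and EGF-like repeats, was dim at 4.04 with TFAP2E and 3.91 with empty vector. Dim values such as these carry little information about a difference.

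In all, 6 of the 10 genes were measured and 4 were dim. Of the 6 measured ones 4 were lower and 2 higher with TFAP2E. That split became 3 and 3 when the arrays were centred, and 5 lower and 1 higher with the mean of probe sets. Of the 6, 1 passed the 2-fold rule, which 0.199% of all measured genes did. The same single gene passed a 1.5-fold rule, which 1.5% of all measured genes did. The median difference of the 6 was -0.03, beside 0.04 for all measured genes, and their mean of -0.40 was set by DKK4. The brightest probe sets of the other 9 genes lay between -0.19 and 0.16, all of them inside the range that held 95% of measured genes.

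**Figure D2:**
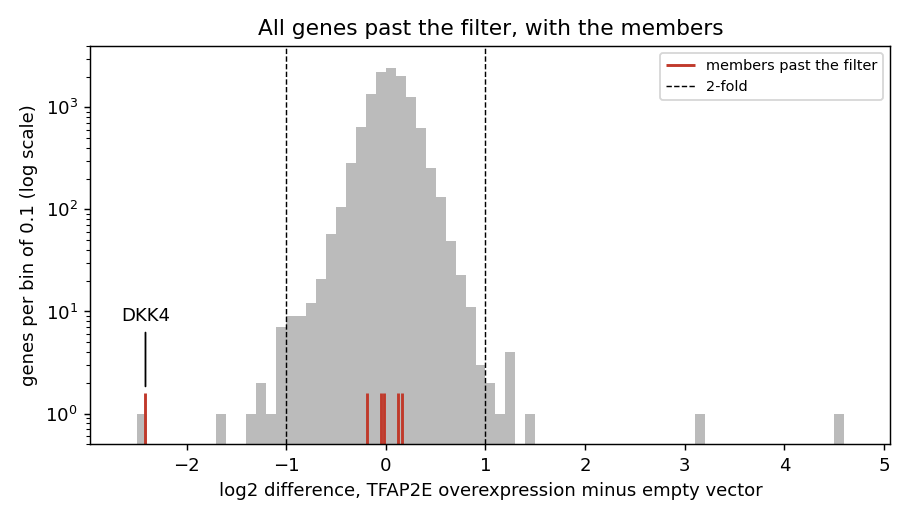
Number of measured genes (vertical axis, log scale) by log2 difference, TFAP2E overexpression minus empty vector (horizontal axis), with the 6 measured members as short vertical marks and 2-fold as dashed lines. DKK4 stands at -2.41, at the far left end, and the other 5 marks lie close to 0.

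DKK4 and SFRP1 both lie on chromosome 8, and the values of the measured genes next to each are given here. Of the 20 measured neighbours of DKK4, 10 on each side in the RefSeq gene order, 11 were higher and 9 lower with TFAP2E. None passed the 2-fold rule, which 0.199% of all measured genes did. The median of the 20 neighbours was 0.02, and became -0.02 with quantile normalization and -0.03 when a loess trend was removed. The lowest was PLAT, tissue plasminogen activator, at -0.43, and the highest POLB, a DNA repair polymerase and the nearest measured gene on one side, at 0.23. VDAC3, a mitochondrial channel protein and the nearest on the other side, differed by 0.18. No neighbour came near the difference of DKK4, and a cause at DKK4 itself or in its region was not tested. Around SFRP1, of the 20 nearest measured genes, DKK4 among them, 6 were higher and 14 lower, with a median of -0.05. Of all measured genes 39.5% were lower. The measured genes from ADAM9 to POLB were in both groups of 20, so that these counts are not separate.

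**Figure D3:**
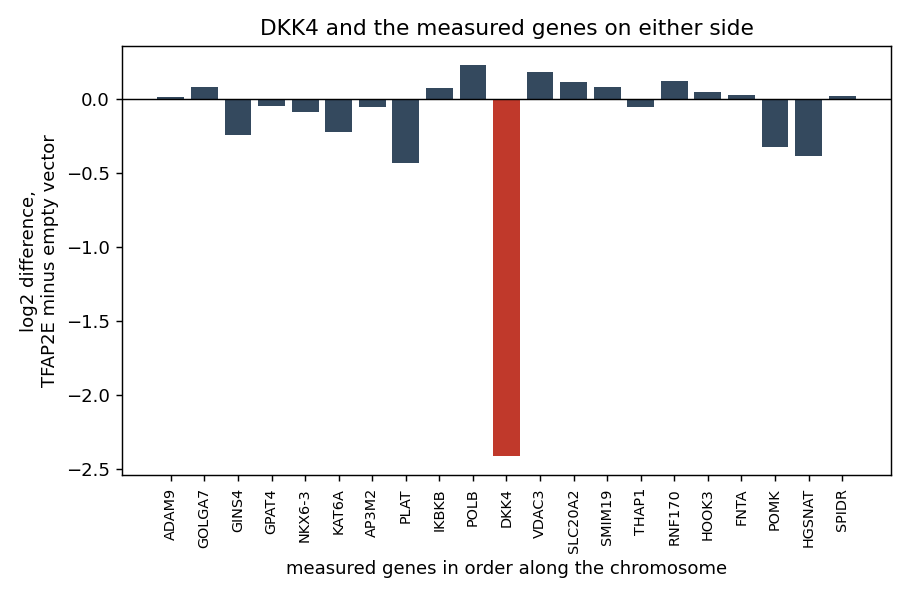
Log2 difference, TFAP2E overexpression minus empty vector (vertical axis), of DKK4 and the 10 measured genes on either side in their order along the chromosome, not to distance. The neighbours lie between -0.43 and 0.23, and DKK4 is at -2.41.

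Promoter sequence was examined for the letters that AP-2 factors are known to bind. RefSeq promoters of build GRCh38.p14, each with 250 bases before and 50 after a gene's start, were searched for only 4 of the 10 genes, DKK1, SFRP5, FRZB and WIF1. Promoters of DKK1 and SFRP5 are shown because these are the measured antagonists among the 4, and neither differed by 2-fold. The motifs searched were GCCNNNGGC and its variant with 4 bases between GCC and GGC in place of 3, both of which read the same on either strand and did not overlap in these promoters, and CTTTGAT for TCF/LEF factors on both strands. Capitals mark matches to the AP-2 motifs. The DKK1 promoter lies at chr10:52314031-52314330 on the plus strand and the SFRP5 promoter at chr10:97771950-97772249 on the minus strand.
DKK1: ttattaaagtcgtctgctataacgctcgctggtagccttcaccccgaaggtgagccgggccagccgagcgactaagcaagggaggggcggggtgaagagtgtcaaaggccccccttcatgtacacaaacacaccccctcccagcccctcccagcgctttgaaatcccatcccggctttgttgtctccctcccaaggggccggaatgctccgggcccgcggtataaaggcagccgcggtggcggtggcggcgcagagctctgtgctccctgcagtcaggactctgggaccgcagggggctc
SFRP5: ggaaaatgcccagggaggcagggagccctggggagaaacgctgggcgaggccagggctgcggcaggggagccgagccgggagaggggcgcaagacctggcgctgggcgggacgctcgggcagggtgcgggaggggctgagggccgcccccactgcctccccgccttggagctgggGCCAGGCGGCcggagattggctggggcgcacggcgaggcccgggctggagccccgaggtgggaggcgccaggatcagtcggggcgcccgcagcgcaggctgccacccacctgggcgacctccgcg

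The SFRP5 promoter held 1 match to the longer AP-2 motif, GCCAGGCGGC, with its first base at -75 from the gene's start, and the DKK1 promoter held none. WIF1 had 1 match, GCCGGGAGGC at -27, and FRZB had 1, GCCTTTTGGC at 35 bases into the gene. None of the 4 held GCCNNNGGC or CTTTGAT. Promoters of the members on chromosome 8, DKK4 and SFRP1, were left out of this search, and those of the remaining members were not searched one by one. Whether the DKK4 promoter holds any of these motifs was therefore not tested. Of 27305 RefSeq promoters of the same length 36.4% held at least 1 of the AP-2 motifs, 23% the shorter and 21.2% the longer, and 2.64% held CTTTGAT. A match is a run of letters and not a measured binding site.

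Other secreted or extracellular antagonists were read from a separate list of 12 genes, of which 7 were measured. None passed the 2-fold rule, which 0.199% of all measured genes did. Of the 7, 4 were higher and 3 lower, with a median of 0.02. The lowest was APCDD1, a membrane-bound Wnt inhibitor, at 9.87 with TFAP2E and 10.4 with empty vector, a difference of -0.49. NOTUM, which removes the lipid from Wnt ligands, read 7.70 with TFAP2E and 8.03 with empty vector, a difference of -0.33. The highest was TRABD2A, a protease that cleaves Wnt ligands, at 7.19 with TFAP2E and 6.83 with empty vector, a difference of 0.37. NOTUM was chosen for mention after its value was seen. No other antagonist on the list came near the difference of DKK4.

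Wnt/beta-catenin target genes are given beside DKK4 because DKK4 is itself known as one. Of 20 measured targets 15 were lower with TFAP2E and 5 higher, where 39.5% of all measured genes were below 0 and 59.2% above it, and their median was -0.23. With quantile normalization or removal of a loess trend 16 were lower. None of the 20 reached 1.5-fold, which 1.5% of all measured genes passed. The stem cell factor ASCL2 was lowest, at 6.77 with TFAP2E and 7.31 with empty vector, a difference of -0.54, and MYC highest, at 10.7 with TFAP2E and 10.5 with empty vector, a difference of 0.24. AXIN2, the feedback inhibitor often used as a readout of the pathway, read 9.52 with TFAP2E and 9.91 with empty vector, a difference of -0.40. Most targets were lower with TFAP2E, as DKK4 was, but by far less, and a link between DKK4 and these targets was not tested. APCDD1, NOTUM, RNF43, ZNRF3, AXIN2 and LEF1, all lower, also belong to other lists given here, so that these lists are not separate.

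Upstream parts of the pathway held no measured gene past 2-fold, which 0.199% of all measured genes passed, or 1.5-fold, which 1.5% passed. Of 14 measured Wnt ligands 5 were higher and 9 lower with TFAP2E (median -0.07), from WNT11 at 0.54 to WNT5A at -0.36. All 10 Frizzled receptors were measured, 4 higher and 6 lower (median -0.02), but 6 higher and 4 lower when the arrays were centred, from FZD2 at 0.29 to FZD7 at -0.45. Among R-spondins, which raise Wnt signalling, and their receptors, 2 of 6 were higher and 4 lower (median -0.18), from RSPO1 at 0.31 to the receptor-removing ligase RNF43 at -0.37. RSPO3, named after its value was seen, was dim, at 3.51 with TFAP2E and 2.75 with empty vector.

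Intracellular parts also held no measured gene past 1.5-fold, which 1.5% of all measured genes passed. Of the 9 members of the destruction complex 3 were higher, 5 lower and 1 equal on both arrays (median -0.02), but 5 higher and 4 lower when the arrays were centred, from AMER1, which recruits the complex to the membrane, at 0.28 to AXIN2 at -0.40. Of 8 measured TCF/LEF factors and coactivators 2 were higher and 6 lower (median -0.14), from BCL9 at 0.26 to PYGO2 at -0.33. In the AP-2 family TFAP2E at 0.04 and TFAP2C at -0.54 were measured (median -0.25) and the other 3 were dim.

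**Figure D4:**
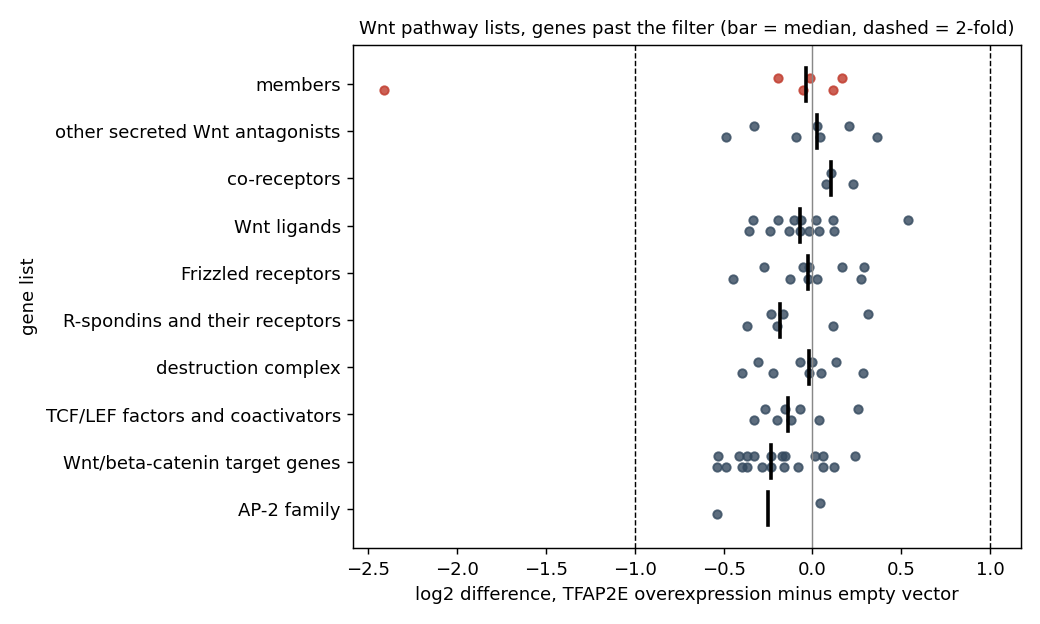
Log2 difference, TFAP2E overexpression minus empty vector (horizontal axis), of each measured gene in the set of 10 and in 9 lists of Wnt pathway and AP-2 genes, with the median of each list as a black bar and 2-fold as dashed lines. DKK4 at -2.41 is the only point outside 2-fold, and the bar of the Wnt/beta-catenin targets lies at -0.23.

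The genes most like DKK4 were sought as the 3 measured genes with the nearest difference over the 2 arrays. None came close. PARM1, a mucin-like membrane protein, read 4.53 with TFAP2E, where it was dim, and 6.20 with empty vector, a difference of -1.68. ALDH1A3, an enzyme that makes retinoic acid, read 8.96 with TFAP2E and 10.3 with empty vector, a difference of -1.31. PSG1, a placental glycoprotein whose close paralogs may share its probes, read 6.44 with TFAP2E and 7.70 with empty vector, a difference of -1.27.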

How the data were processed

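RNA of 2 groups, SW480 cells with TFAP2E overexpression and with empty vector, was measured on 1 Affymetrix array each. The authors deposited log2 values per probe set, for which the submitters' processing notes name RMA. RMA corrects background, gives the probe intensities of the arrays 1 distribution and then summarises probes, and therefore hides a shift shared by all transcripts. The deposited values per probe set still had medians of 5.54 with TFAP2E and 5.56 with empty vector. The version of RMA and the genome build were not given in the sources used.

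Of 33297 probe sets 19460 had 1 symbol in the platform annotation, 1754 several and 12083 none. Symbols were updated through Entrez identifiers in RefSeq (19429 found). The probe set with the highest mean stood for a gene. RefSeq order served only to find neighbours. Genes named are the members, TFAP2E, the 3 nearest to DKK4, the extremes of each list and of the neighbours, and those said to be chosen later; AXIN2, LRP6 and LRP4, VDAC3 and the cell type markers were also chosen with values known. The members and lists were chosen with earlier results of these data known. No test was possible, and the number of arrays limits the precision. Other scalings, filters, floors, thresholds and probe set rules were tried. The scripts (Python 3.11.15, statsmodels 0.14.6 for loess) were tested on simulated data.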

Additional observations from a re-analysis of the deposited data

How the results depend on the processing

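DKK4 had the lowest difference of all measured genes under each of 8 other scalings, filters, floors and probe set rules. It lay between -2.47 and -2.39 under the 4 alternatives computed for it, and 1 member passed the threshold in all 10 alternatives, 1.5-fold and 3-fold included. Of 45 values of the other members 44 stayed within 0.219 (1 standard deviation over all genes) of the reported value, the exception being DKK3 at -0.13 by the mean of its probe sets. Counts of all genes, 10 higher and 13 lower at 2-fold, became 5 and 8 with a filter at the 75th percentile, 103 and 70 at 1.5-fold, and 2 and 2 at 3-fold, as the settings are built. The same filter left 3 other antagonists (median -0.33) and 1 Wnt ligand, WNT5A (-0.36), and no AP-2 gene, which gave no value. With no filter the AP-2 median became 0.040 over 5 genes. Over all measured genes the median difference of 0.04 ranged between 0.01 with the loess trend removed and 0.07 after centring. No paired analysis was possible because there is only 1 array in each group.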

Other observations

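When all 17119 probe sets above the filter were counted, named or not, DKK4 was the fifth from the lowest difference, and the 4 probe sets below it had no gene symbol in the platform annotation. DKK2 and SFRP1, equal on both arrays to the last deposited decimal, belonged to 1379 such probe sets, 4.14% of all 33297 and 7.25% of the 16178 that were dim.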
